A study of Mus musculus and Homo sapiens with 30 samples.

Results

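Fatty acid oxidation was examined through 35 mouse genes of the mitochondrial and peroxisomal pathways, measured in 2 mammary cell lines under 3 culture media. The 35 genes were taken by name and matched to the Ensembl IDs of the mouse count table, which holds 56980 IDs, and all 35 were found there. A gene was described as expressed in a line when its mean over the 9 libraries of that line was at least 1 CPM (counts per 1000000, the gene's count scaled to the library's total count). By that rule 31 of the 35 were expressed in E0771, 33 in NMuMG, 30 in both lines and 34 in at least 1 line.

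E0771 derives from a mammary carcinoma of the mouse, NMuMG from normal epithelium of the mouse mammary gland, and the sample labels list both as breast cancer. Cells grew for 36 h and then spent 16 h in control medium, which was their standard growth medium, or in a mixture of 50% growth medium and 50% secretome, the medium conditioned by inguinal adipocytes, whose source was lean or obese. The growth medium of both lines was DMEM with 10% fetal bovine serum, and that of NMuMG was also given 4.5 g/L glucose and insulin, so the lines differed in medium as well as in origin. The labels gave 3 replicates in each of the 6 groups and did not say whether these were separate cultures, so the p-values measure the spread between these libraries, which may be technical. The species of the adipocytes was not given in the sources used here, and the control medium held no secretome, so the comparison of lean with obese secretome is the one matched for secretome share. The title of the series names an oxylipin, an oxidised fatty acid product, of lean breast adipocytes and links it to ferroptosis.

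In beta-oxidation, a fatty acid is first activated to an acyl-CoA by acyl-CoA synthetases such as Acsl1. Long-chain acyl groups enter mitochondria as carnitine esters, made by Cpt1 enzymes at the outer membrane, carried across the inner membrane by Slc25a20 and returned to CoA by Cpt2. Inside, acyl-CoA dehydrogenases, hydratases, hydroxyacyl-CoA dehydrogenases and thiolases shorten the chain in repeated cycles, and the flavoproteins Etfa, Etfb and Etfdh pass the electrons to the respiratory chain. Peroxisomes import very long and branched acyl chains through Abcd transporters and shorten them with their own oxidases, bifunctional enzymes and thiolases before handing them over as carnitine esters made by Crot and Crat. Many of these genes are known targets of the PPAR family of fatty acid receptors.

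The libraries held between 22929035 and 31094119 counts in E0771 and between 23966897 and 29686456 in NMuMG. Counts are of reads without molecular identifiers. In E0771, lean replicate 3 stood apart from the other lean libraries, with a chi-square per degree of freedom over genes of 8.37 against replicate 1 and 8.12 against replicate 2, where replicates 1 and 2 gave 2.27. After the filter on low counts, 13813 genes were tested in E0771 and 15014 in NMuMG, among them 33 of the 35 in each line. Abcd2 was left out in both lines, Acot1 in E0771 and Ehhadh in NMuMG. The labelled cell types were set against marker lists. Of 10 epithelial markers, 6 or 7 were at 1 CPM or more in each NMuMG medium, with Krt8, Krt18, Krt19 and Cdh1 high. Epcam was at 1.59 to 2.66 CPM in NMuMG, and Cldn3, Cldn7 and Esrp1 stayed at or near 0. In E0771 Krt8 alone reached 1 CPM, at 228.7 to 258.1 CPM, Krt19 had no count in any library, and Epcam, Cdh1 and Krt18 stayed at or near 0. E0771 carried 5 of 10 fibroblast markers (Vim, Col1a1, Col3a1, Pdgfra and Pdgfrb). NMuMG carried 2 of them, Vim at 1736.7 to 1925.8 CPM and Col1a1 at 2.30 to 4.95 CPM. Of 10 macrophage and leukocyte markers, NMuMG carried Cd68 and Cd14, with Cd14 at 170.0 to 201.9 CPM. Those of E0771 summed to no more than 7.26 CPM. Of 8 endothelial markers, 2 reached 1 CPM in E0771, where the 8 summed to no more than 7.75 CPM, and 0 in NMuMG.

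Some marker sums moved with the medium. The summed fibroblast markers of E0771 were at 3981 to 4132 CPM in control medium, 2324 to 2559 with the lean secretome and 3533 to 3881 with the obese secretome. The summed epithelial markers of NMuMG were at 7213 to 7632 CPM in control medium, 7907 to 8186 with the lean secretome and 6832 to 7124 with the obese secretome. The adipocyte markers, led by Lipe, summed to between 7.72 and 12.8 CPM over all libraries, with Lep at 0 throughout and Adipoq at no more than 3 counts in a library. In NMuMG that sum was 12.4 to 12.8 CPM with the lean secretome, above its 8.04 to 9.90 in control medium and 7.72 to 9.14 with the obese secretome. The part of these shifts in the results below was not tested. In cultures measured as a whole, fewer cells expressing a gene and less of its RNA per cell cannot be told apart.

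The lines differed first in which genes of the pathway they expressed, shown here in control medium. Per kilobase of the principal transcript, Etfa had the highest level of the 35 in both lines, at 72.6 CPM per kb in E0771 and 78.3 in NMuMG. Cpt1a, the liver-type carnitine palmitoyltransferase that sets the pace of mitochondrial entry, had rank 7 of the 35 in NMuMG at 41.2 CPM per kb and rank 21 in E0771 at 17.2. Its muscle and brain relatives were low in E0771, with Cpt1b at 0.249 and Cpt1c at 0.258 CPM per kb, and NMuMG had 0.505 and 7.61 for the same genes.

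A few genes were close to absent in 1 line. Ehhadh, the peroxisomal bifunctional enzyme of the straight-chain pathway, had no count in the 3 NMuMG control libraries and no more than 0.124 CPM in any other NMuMG library, against 5.55, 6.82 and 5.63 CPM in the E0771 control libraries. Acot1, a cytosolic acyl-CoA thioesterase, stood at 14.1, 14.6 and 13.2 CPM in NMuMG control medium and at 0 to 0.322 CPM over all 9 E0771 libraries. Cpt1c was at 21.7, 21.4 and 20.7 CPM in NMuMG control medium and at 0.584, 0.969 and 0.611 CPM in that of E0771. Abcd2, a peroxisomal transporter of very long chains, did not pass 0.254 CPM in any library. For these genes the libraries of the lines stood far apart, and a fitted fold change would depend on how counts at or near 0 are treated, so none is given.

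In 1 fit of all 18 libraries, 34 of the 35 genes were tested and 30 of them differed between E0771 and NMuMG in control medium, 10 higher and 20 lower in E0771. That is 88.2%, against 80.5% of all 16529 genes tested (37.1% higher and 43.4% lower), so most genes of any kind differed between the lines. The carnitine shuttle leaned to NMuMG, with 5 of its 6 genes lower in E0771. Cpt2 alone was higher there, at 45.0, 48.1 and 45.3 CPM against 22.5, 22.6 and 21.4 in NMuMG, a log2 difference of 0.95 (SE 0.0655, adjusted p = 8.74e-17). Decr1, the mitochondrial reductase for polyunsaturated chains, was at 5.40, 6.15 and 5.58 CPM in E0771 and 25.3, 25.0 and 25.2 in NMuMG, a log2 difference of -2.25 (SE 0.0915, adjusted p = 1.31e-24). The median log2 difference of all genes was -0.08 in this comparison and 0.03 when scaled by library totals alone. With that scaling the smallest difference called, that of Hadha (-0.12), was no longer called (-0.01, adjusted p = 0.852).

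**Figure D1:**
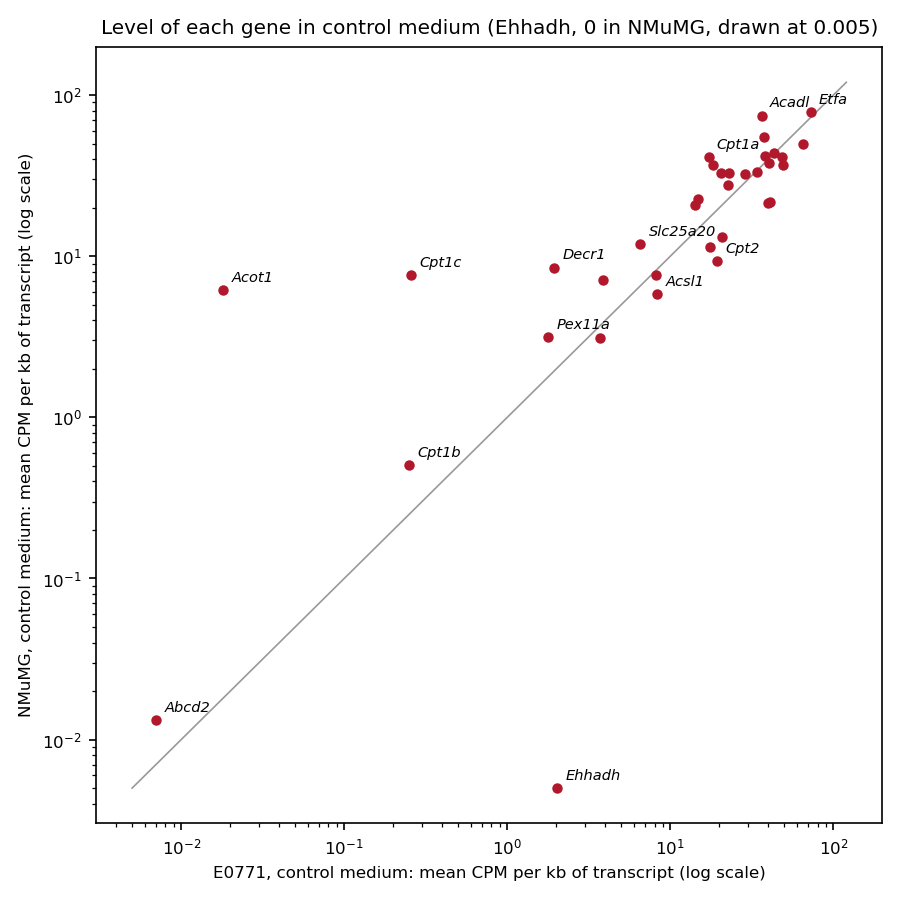
Mean level of each of the 35 genes in control medium, in CPM per kilobase of transcript, for E0771 on the horizontal axis and NMuMG on the vertical axis, both on log scales, 1 point per gene over 3 libraries a line, with the line of equal levels. Most points lie near that line, while Cpt1c and Acot1 lie far above it and Ehhadh, at 0 in NMuMG and drawn at 0.005, lies far below it.

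The main comparison set the lean against the obese secretome. In E0771 the pathway was divided. The 4 largest increases with the lean secretome were those of Acot2, Pex11a, Slc25a20 and Acsl1, between 1.69-fold and 1.84-fold, although other genes of the same roles (Acot8, Crat and Cpt2) were lower. Enzymes of the oxidation cycle itself were mostly lower (Acaa1a, Echs1, Acox3 and Decr2, between 0.595-fold and 0.675-fold of the obese level). In NMuMG nearly all genes that changed were higher with the lean secretome, led by Acot2, Acot1, Cpt1a and Decr2, and the 2 exceptions were Echs1 and Crat.

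Counts of genes past the threshold, an adjusted p under 0.05 in edgeR's quasi-likelihood test with Benjamini-Hochberg adjustment over all genes tested, were read against all genes. In E0771 25 of the 33 genes tested were called, 7 higher and 18 lower with the lean secretome. That is 75.8%, against 52.7% of all genes tested (25.8% higher and 26.9% lower). In NMuMG 24 of 33 were called, 22 higher and 2 lower, or 72.7% against 35% of all genes (17.6% higher and 17.4% lower). For lean over obese, the median of the log2 fold changes was -0.18 over the 33 genes in E0771, where that of all genes was 0.00, and 0.19 in NMuMG, where that of all genes was also 0.00. Lean and obese libraries were fully separate for 25 of the 33 genes in E0771, against 60.3% of all genes, and for 26 of the 33 in NMuMG, against 45.2%. By role, 4 of 5 mitochondrial hydratase, hydroxyacyl dehydrogenase and thiolase genes, 4 of 5 peroxisomal enzymes and 2 of 5 acyl-CoA dehydrogenases were lower in E0771 and none of these was higher. Without lean replicate 3 of E0771 the calls were 10 higher and 16 lower, and Acadl (0.13, adjusted p = 0.0186), Acadvl (0.11, adjusted p = 0.0243) and Acaa2 (0.20) were then among the higher genes. Most changes were small: 8 of the 25 calls in E0771 and 4 of the 24 in NMuMG reached 0.5 on the log2 scale. Over all genes, 2267 of 7275 calls in E0771 and 1197 of 5261 in NMuMG did, so small changes were not particular to the pathway.

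**Figure D2:**
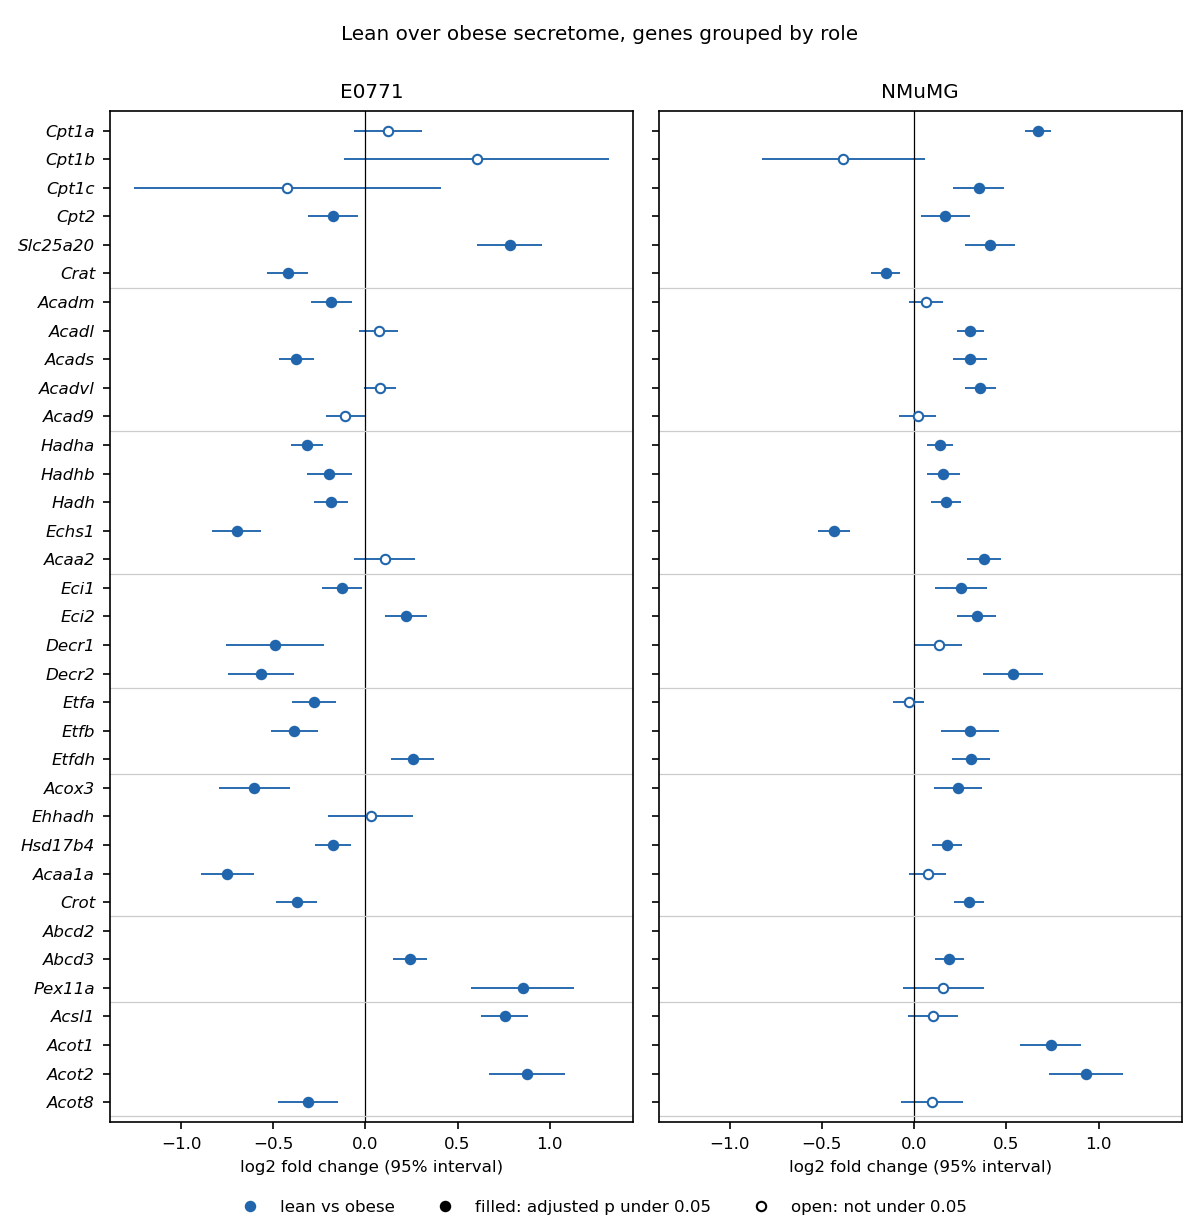
Log2 fold change of lean over obese secretome with its 95% interval for each gene tested, E0771 on the left and NMuMG on the right, genes ordered by role with grey lines between roles, 3 libraries a medium. Filled points have an adjusted p under 0.05. In E0771 18 filled points lie left of 0 and 7 right of it, and in NMuMG 22 lie right of 0 and 2 (Crat and Echs1) lie left.

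Windows of the promoter are shown for 5 genes on which the results turn. Cpt1a (ENSMUSG00000024900) and Slc25a20 (ENSMUSG00000032602) are the entry steps, Acot2 (ENSMUSG00000021226) and Acot1 (ENSMUSG00000072949) are neighbouring thioesterase genes on chromosome 12 with opposite presence in E0771, and Echs1 (ENSMUSG00000025465) fell in both lines. The windows come from RefSeq (GRCm38.p6) and run 5′ to 3′ along the gene's strand. Each is cut where an exon annotated in GENCODE M21 first begins within it. The Acot2 window holds no annotated exon and is shown whole, and the Cpt1a window lies inside the annotated Cpt1a gene. Positions given below count from the end of the whole 250-base windows. Capitals mark AGGTCA, the core of many nuclear receptor elements, or CCAAT, on either strand.
Cpt1a, chr19:3323051-3323284, plus strand: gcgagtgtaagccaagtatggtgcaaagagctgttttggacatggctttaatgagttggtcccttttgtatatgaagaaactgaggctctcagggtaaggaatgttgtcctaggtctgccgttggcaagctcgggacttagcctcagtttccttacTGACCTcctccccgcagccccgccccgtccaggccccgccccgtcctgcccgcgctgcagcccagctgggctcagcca
Slc25a20, chr9:108661886-108662087, plus strand: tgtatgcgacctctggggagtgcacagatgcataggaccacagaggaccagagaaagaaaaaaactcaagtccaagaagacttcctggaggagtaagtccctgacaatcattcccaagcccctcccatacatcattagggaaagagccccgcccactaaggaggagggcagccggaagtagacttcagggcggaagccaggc
Acot2, chr12:83987611-83987860, plus strand: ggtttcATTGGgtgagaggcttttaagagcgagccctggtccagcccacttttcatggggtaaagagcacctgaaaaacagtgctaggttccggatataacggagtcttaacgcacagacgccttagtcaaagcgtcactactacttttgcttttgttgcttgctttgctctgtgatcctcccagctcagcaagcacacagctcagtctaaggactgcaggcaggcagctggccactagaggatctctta
Acot1, chr12:84009252-84009489, plus strand: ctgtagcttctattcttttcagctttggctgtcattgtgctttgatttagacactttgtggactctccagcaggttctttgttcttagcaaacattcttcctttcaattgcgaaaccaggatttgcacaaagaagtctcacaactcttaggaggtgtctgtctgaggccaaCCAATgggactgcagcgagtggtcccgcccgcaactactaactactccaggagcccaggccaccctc
Echs1, chr7:140116477-140116671, minus strand: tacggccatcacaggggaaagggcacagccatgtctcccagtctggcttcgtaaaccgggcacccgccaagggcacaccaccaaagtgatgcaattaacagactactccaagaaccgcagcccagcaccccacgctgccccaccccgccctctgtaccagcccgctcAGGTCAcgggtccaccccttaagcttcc

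RefSeq held a promoter for 28 of the 35 genes. Within 250 bases before the start, on both strands, AGGTCA occurred in 5 of the 28 (17.9%), which were Acadm, Acadvl, Cpt1a, Cpt1c and Echs1, against 15.8% of 27025 genes. CCAAT occurred in 14 of the 28 (50%) against 37.5%. A tandem of AGGTCA with 1 base between its copies (DR1), whose matches are also matches of AGGTCA, occurred in 0 of the 28 and in 0.0407% of all genes. Cpt1a carried AGGTCA on the minus strand 94 bases before its start, and Echs1 carried it on the gene's own strand 83 bases before. The Echs1 window lies inside the gene body of Paox, which runs on the other strand. Cpt1a also carried CCAAT 19 bases before its start, where it runs past the end of the printed window. Of the neighbours, Acot1 held CCAAT 79 bases and Acot2 244 bases before the start, the latter on the minus strand. These matches describe letters in the windows. Promoters of Cpt1b, Crat, Acad9, Acaa2, Decr1, Hsd17b4 and Abcd2 were not matched.

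The carnitine shuttle was led by Slc25a20, the carnitine-acylcarnitine carrier. In E0771 it was at 10.9, 13.0 and 11.1 CPM in control medium, 29.3, 30.4 and 25.7 with the lean secretome and 17.4, 14.8 and 17.2 with the obese secretome. Its 3 groups did not overlap, with lean highest and control lowest. Lean over obese stood at 0.78 on the log2 scale (SE 0.0852, adjusted p = 3.90e-08), and over control medium it was 1.27 (SE 0.0891, adjusted p = 2.31e-11). In NMuMG it was at 21.8, 21.9 and 19.8 CPM in control medium, 25.5, 24.3 and 27.1 with the lean secretome and 18.9, 18.5 and 19.9 with the obese secretome. There the lean libraries were also above all others, by 0.41 over obese (SE 0.0671, adjusted p = 7.92e-06), and the obese and control libraries overlapped.

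Cpt1a makes the carnitine esters that Slc25a20 carries, and was not called for lean over obese in E0771. Its E0771 libraries read 71.2, 73.1 and 77.7 CPM in control medium, 116.6, 124.8 and 103.1 with the lean secretome and 100.8, 96.3 and 118.0 with the obese secretome. Both secretomes lay above control medium and overlapped each other, and lean over obese was 0.12 (95% interval -0.06 to 0.30, adjusted p = 0.251). Without obese replicate 3 it was 0.21 and called (adjusted p = 0.0136). In NMuMG the same gene read 177.0, 179.4 and 176.7 CPM in control medium, 268.4, 266.9 and 275.5 with the lean secretome and 175.5, 161.6 and 167.0 with the obese secretome. Here the lean libraries stood alone above the rest, with a log2 fold change of 0.67 over obese (SE 0.0353, adjusted p = 2.39e-16) and 0.61 over control (SE 0.0350, adjusted p = 9.20e-16). The difference between the lines in lean over obese was -0.54 (SE 0.0965, adjusted p = 0.000245 for the interaction).

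The other genes of the shuttle did not move in 1 direction. Crat, which makes short-chain carnitine esters, was lower with the lean than with the obese secretome in both lines, by a log2 fold change of -0.42 in E0771 and -0.16 in NMuMG. Its 3 lean libraries in E0771 (50.5 to 53.6 CPM) lay below the 3 obese ones (65.7 to 75.6 CPM). Cpt2, which restores acyl-CoA inside the mitochondrion, was lower in E0771 (-0.18, adjusted p = 0.0254) and higher in NMuMG (0.17, adjusted p = 0.0417). The E0771 call of Cpt2 was lost without lean replicate 3 (adjusted p = 0.167) or obese replicate 2 (adjusted p = 0.158), and the NMuMG call was lost in several alternatives, with an adjusted p of up to 0.194. Cpt1c was higher in NMuMG (0.35, adjusted p = 0.000105). Cpt1b stayed near 1 CPM and was called in neither line, and 89.1% of the 150-base windows of its transcript also occur in the readthrough gene model Gm44502, so its count is uncertain.

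Of the 4 genes of activation and hydrolysis, 2 of the 3 tested were higher with the lean than with the obese secretome in E0771 and 2 of the 4 in NMuMG. Of all genes tested, 25.8% and 17.6% were higher, and so few genes cannot show a trait of the role. Acot2, a mitochondrial acyl-CoA thioesterase, had E0771 values of 7.77, 8.28 and 8.37 CPM in control medium, 17.8, 18.4 and 14.4 with the lean secretome and 8.71, 8.53 and 10.0 with the obese secretome. In NMuMG its values were 6.30, 7.12 and 6.97 CPM, 13.9, 13.8 and 12.4, and 6.09, 7.93 and 6.87 in the same order of media. In both lines the lean libraries lay above all others. Lean over obese was 0.88 in E0771 (SE 0.100, adjusted p = 8.25e-08) and 0.93 in NMuMG (SE 0.0994, adjusted p = 2.88e-09), and these did not differ between the lines (-0.04, 95% interval -0.33 to 0.26). Acot1 and Acot2 share sequence, with 10.2% of the windows of Acot2 found also in Acot1, so reads could be divided between them.

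Acot1 could be followed in NMuMG only. Its values were 14.1, 14.6 and 13.2 CPM in control medium, 18.0, 17.9 and 18.3 with the lean secretome and 11.3, 11.2 and 9.67 with the obese secretome. The 3 groups did not overlap, with lean highest and obese lowest. Lean over obese was 0.74 (SE 0.0809, adjusted p = 4.85e-09).

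Acsl1, the acyl-CoA synthetase of the list, behaved differently in the lines. In E0771 it read 29.6, 36.3 and 31.5 CPM in control medium, 65.0, 63.4 and 66.0 with the lean secretome and 39.7, 36.4 and 38.6 with the obese secretome. The lean libraries were well above the others, and lean over obese was 0.75 (SE 0.0622, adjusted p = 4.79e-10). In NMuMG the 9 libraries lay between 21.7 and 26.3 CPM and the media overlapped, with lean over obese at 0.10 (95% interval -0.04 to 0.24, adjusted p = 0.260). The interaction was 0.67 (SE 0.0945, adjusted p = 2.86e-07). Acot8, a peroxisomal thioesterase, was lower in E0771 (-0.31, SE 0.0791, adjusted p = 0.00182) and had a value of 0.10 in NMuMG that was not called.

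The acyl-CoA dehydrogenases open each round of mitochondrial oxidation and are specific for chain length. Between lean and obese secretome in E0771, Acads (short chains, -0.37) and Acadm (medium chains, -0.19, or -0.12 without lean replicate 3) were lower, and Acadl (0.07), Acadvl (0.08) and Acad9 (-0.11) were not called. In NMuMG, Acads (0.30), Acadl (long chains, 0.30) and Acadvl (very long chains, 0.36) were higher, and Acadm (0.06) and Acad9 (0.02) were not called. Acads showed the opposition most clearly. Its E0771 libraries lay at 89.7 to 94.9 CPM in control medium, 71.0 to 77.4 with the lean secretome and 94.9 to 97.9 with the obese secretome. Its NMuMG libraries lay at 64.7 to 72.6, 79.2 to 87.0 and 66.0 to 67.9 CPM. The lean libraries were below the other media in E0771 and above them in NMuMG, and the interaction was -0.66 (SE 0.0658, adjusted p = 1.65e-10).

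The mitochondrial hydration, dehydrogenation and thiolysis steps held Echs1, which fell in both lines, as Crat did. Echs1, the short-chain enoyl-CoA hydratase, had E0771 values of 55.7, 59.5 and 59.9 CPM in control medium, 38.9, 38.7 and 32.5 with the lean secretome and 56.3, 60.3 and 61.1 with the obese secretome. Its NMuMG values were 87.5, 86.5 and 84.0 CPM, 59.0, 60.2 and 58.3, and 75.1, 79.7 and 83.1 in the same order. The lean libraries were lowest in both lines. Lean over obese was -0.70 in E0771 (SE 0.0637, adjusted p = 3.07e-09) and -0.44 in NMuMG (SE 0.0437, adjusted p = 8.71e-10), and the difference between these, -0.25 (SE 0.0778, adjusted p = 0.0110), was lost without E0771 lean replicate 3 (adjusted p = 0.0833).

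The trifunctional protein, which joins hydratase, dehydrogenase and thiolase activities for long chains, changed in opposite directions. Hadha, its alpha subunit, was lower with the lean secretome in E0771 (-0.32, SE 0.0421, adjusted p = 7.40e-07) and higher in NMuMG (0.14, SE 0.0343, adjusted p = 0.00125). Hadhb, its beta subunit, was at -0.20 (adjusted p = 0.00718) and 0.16 (adjusted p = 0.00455), although 43.7% of its windows also occur in the gene model Gm13910. The Hadhb call in E0771 did not hold without lean replicate 3 (adjusted p = 0.0531). Hadh, the dehydrogenase for shorter chains, was at -0.19 in E0771 and 0.17 in NMuMG, both called. Acaa2, the mitochondrial thiolase, was higher in NMuMG (0.38, SE 0.0452, adjusted p = 3.16e-08) and not called in E0771 (0.10, adjusted p = 0.278), where it was called higher, at 0.20, without lean replicate 3.

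Auxiliary enzymes handle the double bonds of unsaturated chains. Decr2, the peroxisomal dienoyl-CoA reductase, read 18.1, 16.9 and 19.6 CPM in E0771 control medium, 14.6, 13.2 and 11.5 with the lean secretome and 19.4, 19.1 and 19.3 with the obese secretome. In NMuMG it read 17.7, 16.1 and 17.2 CPM, 20.1, 19.8 and 22.8, and 12.3, 14.6 and 15.8. The lean libraries were lowest in E0771 and highest in NMuMG. Lean over obese was -0.57 (SE 0.0864, adjusted p = 5.47e-06) and 0.54 (SE 0.0803, adjusted p = 1.94e-06), and the interaction of -1.09 (SE 0.122, adjusted p = 2.32e-09) was the largest in size among the called genes of the pathway. Decr1, its mitochondrial counterpart, was lower in E0771 (-0.49, SE 0.129, adjusted p = 0.00246) and not called in NMuMG (0.13).

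The enoyl-CoA isomerases differed from each other in E0771. Eci2, found in peroxisomes and mitochondria, read 38.5, 40.9 and 38.8 CPM in E0771 control medium, 59.6, 58.0 and 55.9 with the lean secretome and 51.6, 45.7 and 50.8 with the obese secretome. Its 3 groups were in separate ranges, and lean over obese was 0.22 (SE 0.0557, adjusted p = 0.00166). In NMuMG it was also higher with the lean secretome (0.34, adjusted p = 2.38e-06). Eci1, the mitochondrial isomerase, was barely called lower in E0771 (-0.13, adjusted p = 0.0481) and lost that call in most alternatives, with an adjusted p of up to 0.143. In NMuMG Eci1 was higher (0.26, adjusted p = 0.00387).

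Of the electron transfer flavoproteins, the dehydrogenase that feeds ubiquinone, Etfdh, was higher with the lean secretome in both lines, by 0.26 in E0771 (SE 0.0561, adjusted p = 0.000442) and 0.31 in NMuMG (SE 0.0509, adjusted p = 9.93e-06). The subunits of its electron donor did not move with it in E0771. Etfa was at -0.28 (adjusted p = 0.000289) and Etfb at -0.39 (adjusted p = 1.05e-05), while in NMuMG Etfa was at -0.03 (not called) and Etfb at 0.30 (adjusted p = 0.00237). Of the windows of Etfb, 62.9% also occur in the gene model Gm45233.

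Among the roles of the 35 genes, the peroxisomal enzymes had the lowest median in E0771. A wider list of 18 further peroxisomal enzymes and transporters had 3 higher and 6 lower with the lean than with the obese secretome (50% called, against 52.7% of all genes). Of the 5 peroxisomal enzymes among the 35 genes, 4 were lower with the lean than with the obese secretome, with a median log2 fold change of -0.37. Acaa1a (ENSMUSG00000036138), a peroxisomal thiolase, read 36.4, 33.8 and 37.4 CPM in control medium, 21.3, 21.9 and 18.8 with the lean secretome and 32.8, 35.9 and 34.9 with the obese secretome. Its lean libraries lay below all others, and lean over obese was -0.75 (SE 0.0692, adjusted p = 2.98e-09). Of the windows of Acaa1a, 12.7% also occur in Acaa1b, so reads could be divided between them. Acox3, the oxidase for branched chains, read 16.8, 15.7 and 13.4 CPM, 9.87, 10.1 and 10.1, and 13.6, 16.0 and 15.9, again with lean lowest, and its value was -0.60 (SE 0.0935, adjusted p = 7.17e-06). Crot, which makes carnitine esters of the shortened chains for export, was at -0.37 (SE 0.0531, adjusted p = 2.05e-06). Hsd17b4, the bifunctional enzyme for branched and very long chains, was at -0.18 (SE 0.0470, adjusted p = 0.00294).

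The same enzymes behaved otherwise in NMuMG. Acox3 (0.24), Hsd17b4 (0.18) and Crot (0.30) were higher with the lean than with the obese secretome, and Acaa1a was not called (0.07, 95% interval -0.03 to 0.17). Crot libraries lay at 107.0 to 112.2 CPM in NMuMG control medium, 123.2 to 135.7 with the lean secretome and 99.9 to 104.2 with the obese secretome, where E0771 had 52.4 to 57.0, 40.3 to 42.7 and 51.5 to 54.7. The lean libraries were thus above the others in NMuMG and below them in E0771. The interactions were -0.82 for Acox3 (adjusted p = 1.93e-07), -0.81 for Acaa1a (adjusted p = 6.11e-10), -0.66 for Crot (adjusted p = 2.05e-10) and -0.34 for Hsd17b4 (adjusted p = 2.47e-05). Ehhadh, tested in E0771 alone, was at 0.03 (95% interval -0.20 to 0.26, adjusted p = 0.852).

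Pex11a and Abcd3, 2 genes of the peroxisomal membrane, went the other way in E0771 from the peroxisomal enzymes that fell. This did not extend to the 18 peroxisome assembly genes described below, of which 4 were higher and 6 lower (55.6% called, against 52.7% of all genes). Pex11a (ENSMUSG00000030545), which promotes the elongation and division of peroxisomes, read 4.27, 3.73 and 3.97 CPM in control medium, 6.19, 5.44 and 5.95 with the lean secretome and 3.10, 2.99 and 3.58 with the obese secretome. The lean libraries lay above all others and the obese libraries below the controls, and lean over obese was 0.85 (SE 0.136, adjusted p = 9.93e-06). Abcd3, the transporter of branched acyl chains and bile acid precursors, was at 0.24 in E0771 (SE 0.0450, adjusted p = 7.12e-05) and 0.19 in NMuMG (SE 0.0386, adjusted p = 0.000187). Pex11a in NMuMG was at 0.16 (95% interval -0.06 to 0.38), and the interaction for it was 0.71 (SE 0.169, adjusted p = 0.000804).

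**Figure D3:**
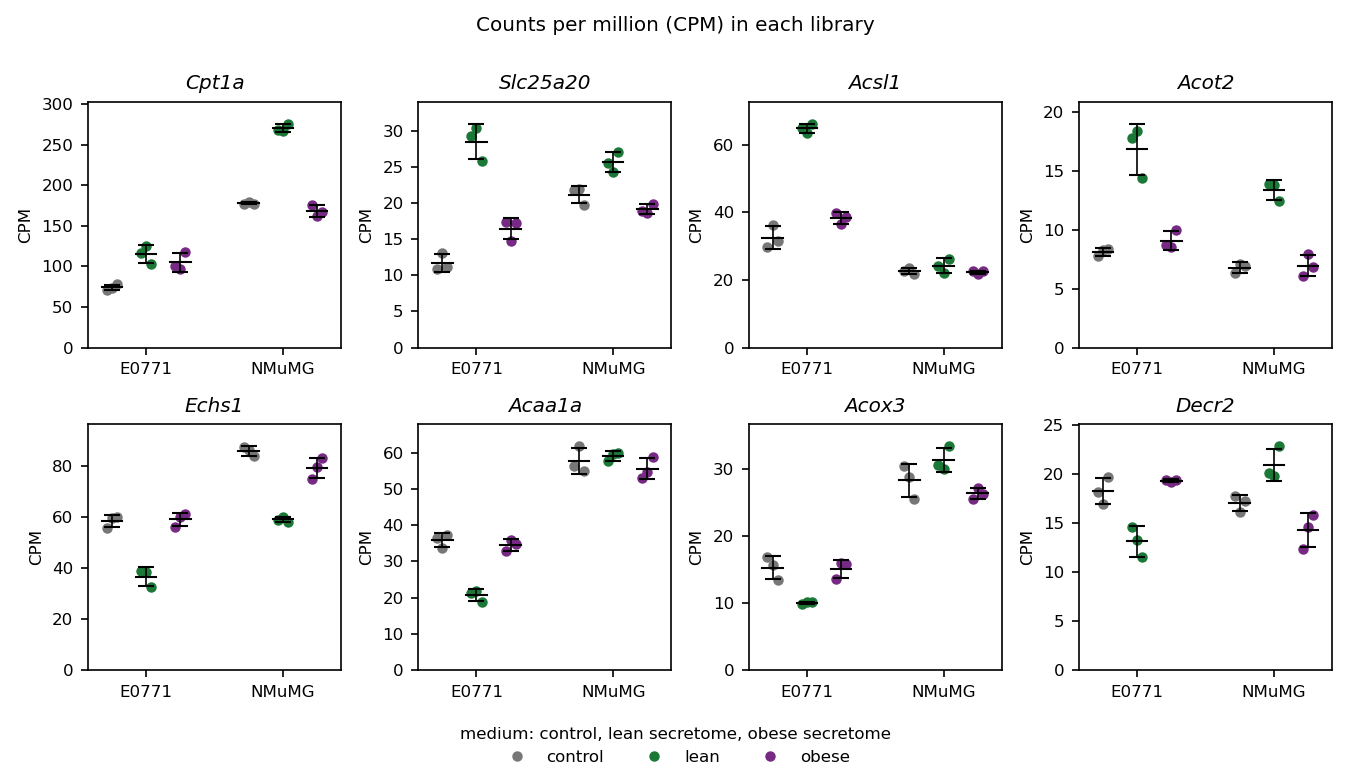
CPM in each library for 8 genes of the pathway, with the 9 E0771 libraries on the left and the 9 NMuMG libraries on the right of each panel, coloured by medium, and the mean with 1 SD (n = 3) as black bars. Acot2 is highest with the lean secretome in both lines and Echs1 lowest in both, the lean libraries of Acsl1 and Acaa1a stand apart in E0771 and overlap the others in NMuMG, and Decr2 is lowest in E0771 and highest in NMuMG with the lean secretome.

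As given above, 25 genes were called for lean over obese in E0771 and 24 in NMuMG, the latter with Acot1, which was not tested in E0771. Set side by side over the 32 genes tested in both lines, which come from separate libraries, 18 were called in both (56.2%, against 22.8% of the 12433 genes tested in both lines). Of these, 5 were higher in both (Slc25a20, Eci2, Etfdh, Abcd3 and Acot2), 2 were lower in both (Crat and Echs1) and 11 were lower in E0771 and higher in NMuMG (Cpt2, Acads, Hadha, Hadhb, Hadh, Eci1, Decr2, Etfb, Acox3, Hsd17b4 and Crot). None was higher in E0771 and lower in NMuMG. Among the opposite calls, those of Cpt2, Hadhb and Eci1 in E0771 were lost in some alternatives, as given above. Of all genes, 2834 were called in both lines, 805 higher in both, 1010 lower in both and 1019 in opposite directions. The signs were the same for 14 of the 32 genes (43.8%), and for 55.1% of all 12433. As a description across genes, whose values are not independent, Pearson's r between the lines was 0.279 (Spearman's rho 0.288) for the 32 genes and 0.193 (rho 0.164) for all. The difference between the lines was itself called for 26 of 34 genes (76.5%), against 34.2% of all genes, with the lean over obese value lower in E0771 for 22 and higher for 4.

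Against control medium, the lean secretome moved more genes of the pathway in E0771 and fewer in NMuMG. These comparisons share the lean libraries with those above and the control libraries with those of the obese secretome, so the values are given side by side and not as separate evidence. In E0771, 27 of 33 were called, 12 higher and 15 lower, or 81.8% against 56.3% of all genes (27.3% higher and 29% lower). Without lean replicate 3 the calls were 12 higher and 12 lower. In NMuMG, 19 of 33 were called, 17 higher and 2 lower, or 57.6% against 38.2% of all genes (19.1% higher and 19.1% lower). The libraries did not overlap for 27 of the 33 genes in E0771, against 61.4% of all genes, and for 22 of the 33 in NMuMG, against 48%. The median log2 fold change was -0.14 in E0771, where that of all genes was -0.01, and 0.14 in NMuMG, where that of all genes was 0.00.

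The genes that rose over control with the lean secretome in E0771 included some, but not all, mitochondrial steps for long chains. Hadha and Hadhb of the trifunctional protein were called lower. They were at 137.8 to 149.5 and 63.7 to 77.0 CPM with the lean secretome, and at 171.5 to 177.9 and 78.5 to 85.7 CPM in control medium. Cpt2 was not called. Acadl was at 67.1, 68.9 and 72.5 CPM in control medium, 99.5, 97.9 and 87.5 with the lean secretome and 90.0, 87.9 and 92.0 with the obese secretome, so that both secretomes lay above control. Its lean over control value was 0.44 (SE 0.0518, adjusted p = 1.04e-07). Acadvl (0.20), Acaa2 (0.47), Cpt1a (0.62), Eci2 (0.54), Etfdh (0.44) and the peroxisomal transporter Abcd3 (0.39) were also higher. Ehhadh was at 0.35 (adjusted p = 0.0121), and at 0.29 (adjusted p = 0.0605) without control replicate 1. The largest increases were those of Slc25a20 (1.27), Acot2 (1.04, SE 0.102, adjusted p = 6.06e-09) and Acsl1 (0.99, SE 0.0633, adjusted p = 5.85e-12).

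Among genes above 1 CPM, the largest decreases from control in E0771 were those of 3 peroxisomal enzymes and of Echs1. Acaa1a was at -0.81 (SE 0.0692, adjusted p = 6.20e-10), Echs1 at -0.68 (SE 0.0638, adjusted p = 3.40e-09), Acox3 at -0.63 (SE 0.0936, adjusted p = 3.64e-06) and Decr2 at -0.49 (SE 0.0871, adjusted p = 3.76e-05). Acot8 and Crot were both at -0.42 and Acads at -0.31. Cpt1c had the most negative value, -0.98 (SE 0.380, adjusted p = 0.0308), but it rests on under 1 CPM in every library, at 0.250, 0.290 and 0.547 CPM with the lean secretome and 0.584, 0.969 and 0.611 in control medium. Its call was lost with DESeq2 (adjusted p = 0.0748) and without control replicate 2, lean replicate 1 or lean replicate 2 (adjusted p of up to 0.194).

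In NMuMG the lean secretome raised Acot2 by 0.99 over control (SE 0.0979, adjusted p = 3.79e-10), Cpt1a by 0.61, Acaa2 by 0.39, Acot1 by 0.37 and Acadl by 0.36, and lowered Echs1 (-0.54, SE 0.0432, adjusted p = 2.97e-12) and Crat (-0.17, SE 0.0393, adjusted p = 0.000915). Over the 32 genes tested in both lines, 9 were higher than control in both (Cpt1a, Slc25a20, Acadl, Acadvl, Acaa2, Eci2, Etfdh, Abcd3 and Acot2), 2 were lower in both (Crat and Echs1) and 6 were lower in E0771 and higher in NMuMG (Cpt1c, Acads, Hadha, Decr2, Hsd17b4 and Crot). These 17 are 53.1% of the 32, against 26.2% of all genes called in both lines (1127 higher in both, 1261 lower in both and 872 in opposite directions). Of the opposite calls, that of Hsd17b4 in E0771 was lost without lean replicate 3 (adjusted p = 0.0596) or control replicate 3 (adjusted p = 0.0709), and that of Hadha in NMuMG was lost in several alternatives, with an adjusted p of up to 0.182. That of Cpt1c in E0771, where it was under 1 CPM, was also lost in several alternatives, as given above. The difference between the lines was called for 17 of 34 genes (50%), against 34.5% of all genes. For Cpt1a the difference between the lines was not called in this contrast, at 0.04 with a 95% interval of -0.16 to 0.25, and it was called in lean over obese.

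**Figure D4:**
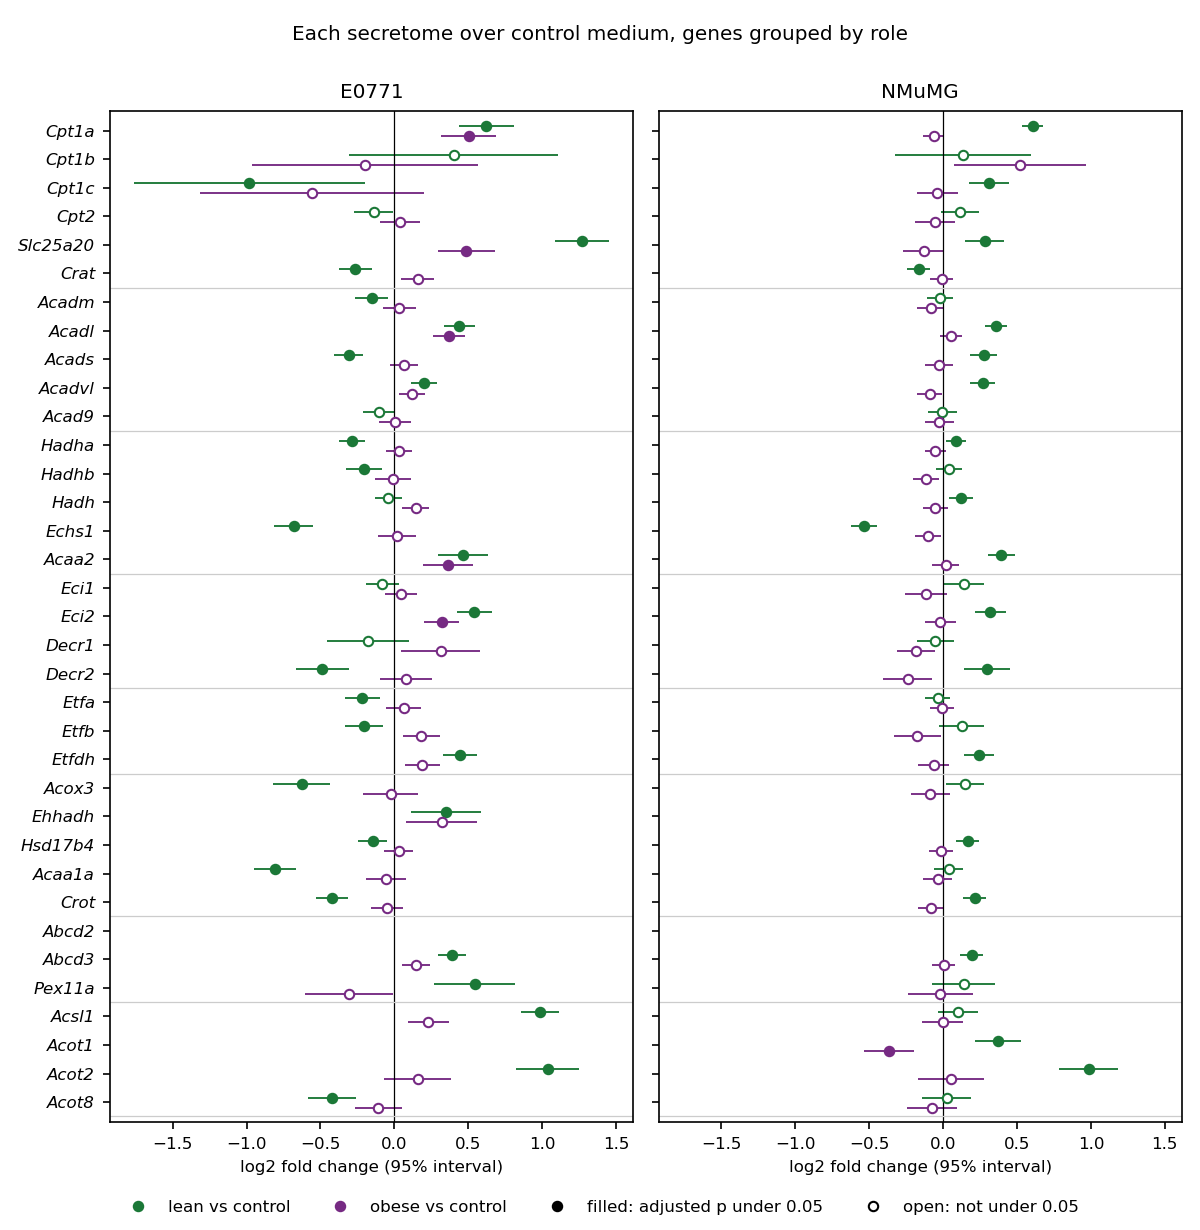
Log2 fold change of each secretome over control medium with its 95% interval for each gene tested, lean in green and obese in purple, E0771 on the left and NMuMG on the right, 3 libraries a medium. Filled points have an adjusted p under 0.05. For the obese secretome 5 points are filled in E0771, all right of 0, and 1 (Acot1, left of 0) in NMuMG.

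The obese secretome over control raised 5 of 33 genes in E0771 and lowered none, or 15.2% against 2.61% of all genes (1.21% higher and 1.40% lower). The 5 were Slc25a20 (0.49, SE 0.0940, adjusted p = 0.00540), Cpt1a (0.50, SE 0.0856, adjusted p = 0.0121), Acadl (0.37, SE 0.0522, adjusted p = 0.000326), Acaa2 (0.36, SE 0.0802, adjusted p = 0.0243) and Eci2 (0.32, SE 0.0576, adjusted p = 0.00304). Of the other genes of the shuttle and of long-chain oxidation, Cpt2, Hadha, Hadhb and Acadvl were not called. Acaa2 libraries read 41.2, 45.9 and 44.3 CPM in control medium, 65.4, 65.0 and 52.9 with the lean secretome and 55.4, 52.7 and 61.3 with the obese secretome, so both secretomes lay above control and overlapped. The libraries of obese secretome and control did not overlap for 17 of the 33 genes, against 21.5% of all genes.

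Of these 5 calls, 3 depended on single libraries. Those of Acadl and Eci2 were kept in every alternative without a minimum fold change. Without control replicate 1, 2 of the 5 remained and Cpt1a (adjusted p = 0.111), Slc25a20 (adjusted p = 0.0686) and Acaa2 (adjusted p = 0.184) were lost. Cpt1a was also lost without control replicate 2 (adjusted p = 0.0693). Acaa2 was also lost without control replicate 2 or 3 and without obese replicate 1 or 3, with an adjusted p between 0.0505 and 0.120. With the replicate block its call was lost too (adjusted p = 0.0627). With both lines in 1 fit, 10 genes were called, all higher.

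In NMuMG the obese secretome changed 1 of 33 genes, 3.03% against 5.01% of all genes (2.34% higher and 2.66% lower). The gene was Acot1, at a log2 value of -0.37 against control (SE 0.0832, adjusted p = 0.00516). Its call was lost with both lines in 1 fit (adjusted p = 0.0507) and without obese replicate 3 (adjusted p = 0.0693). The obese and control libraries did not overlap for 12 of the 33 genes, against 21.3% of all genes. The difference between the lines in obese over control was called for 8 of 34 genes (23.5%), against 1.69% of all genes (1.06% with a higher value in E0771), each with a higher value in E0771, and the largest was that of Slc25a20 (0.63, SE 0.118, adjusted p = 0.00192). Cpt1a followed at 0.58 (SE 0.0986, adjusted p = 0.00487).

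Further genes of fatty acid oxidation and of peroxisomes, 81 in all, were taken from lists of related enzymes, peroxisome assembly factors, carnitine uptake and synthesis, and regulators. In lean over obese, 42 of the 68 tested in E0771 were called, 15 higher and 27 lower, and 29 of the 72 tested in NMuMG, 24 higher and 5 lower. These are 61.8% and 40.3%, beside the 52.7% and 35% of all genes given above. Among 16 mitochondrial acyl-CoA enzymes tested in E0771, 11 were lower and 1 was higher (75% called). In NMuMG 6 were higher and none lower (37.5% called, close to the 35% of all genes). Among 18 peroxisomal enzymes and transporters, 6 were lower and 3 higher in E0771 (50% called), and 10 were higher and 1 lower in NMuMG (61.1% called).

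Related enzymes with large decreases in E0771 act on malonyl-CoA, propionyl-CoA and branched-chain acids. Mlycd, malonyl-CoA decarboxylase, which removes the inhibitor of Cpt1, read 9.67, 10.1 and 11.7 CPM in control medium, 4.94, 5.30 and 3.79 with the lean secretome and 9.81, 12.0 and 10.5 with the obese secretome. Its lean libraries were below all others, and lean over obese was -1.21 (SE 0.125, adjusted p = 1.65e-08). Pccb, a subunit of propionyl-CoA carboxylase, was at -0.87 (SE 0.112) and Ivd, isovaleryl-CoA dehydrogenase, at -0.81 (SE 0.0484), each without overlap of lean and obese libraries. Acacb, the acetyl-CoA carboxylase that makes malonyl-CoA at the mitochondrial surface, was higher at low level, with 2.54, 2.58 and 3.70 CPM against 1.10, 0.786 and 1.28 with the obese secretome (1.47, SE 0.267, adjusted p = 5.91e-05). Fgf21, a hormone gene that fasting induces in liver, was higher too (1.71, SE 0.486, adjusted p = 0.00462) but stayed under 1 CPM in every library.

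In NMuMG the related genes that rose furthest were others. Acox2, the peroxisomal oxidase of bile acid precursors, read 2.53, 1.72 and 2.54 CPM in control medium, 6.26, 6.45 and 9.63 with the lean secretome and 2.34, 1.53 and 1.44 with the obese secretome. The lean libraries lay above all others, and lean over obese was 2.06 (SE 0.202, adjusted p = 2.98e-08). Pdk4, the kinase that turns off pyruvate oxidation, was at 1.25 (SE 0.160, adjusted p = 1.19e-07) and had no count in any E0771 library. Acad12, an acyl-CoA dehydrogenase family gene, was at 0.89 (SE 0.134, adjusted p = 2.39e-06), with 6.81, 5.56 and 7.20 CPM against 3.76, 3.10 and 3.63 with the obese secretome. Mlycd, Pccb and Ivd were not called in lean over obese in NMuMG, at 0.20, 0.04 and -0.04.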

How the data were processed

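RNA of 18 mouse libraries, 3 for each of 2 cell lines and 3 media, was analysed from the gene counts that the authors deposited, whole numbers of reads per Ensembl gene ID and not normalised. A human table of the series was not used here. The submitters' processing notes list cutadapt 1.16, STAR 2.7.9a, featureCounts 1.6.3 and GRCm39, and the strand setting was not given in the sources used here. Per the labels' protocols the libraries were directional, polyA-selected and read as pairs. Totals per library ran from 22929035 to 31094119 counts, so genes under 1 CPM (counts per 1000000) rest on few reads.

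Gene symbols came from GENCODE M21 names for GRCm38, which covered 52073 of 56980 IDs and 99.68% of the counts. GENCODE M21 also gave the transcript lengths and the sequence windows shared between transcripts. The exons and genes annotated in the printed promoter windows came from it too. Promoter windows were taken from RefSeq. CPM divided each count by its library total.

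Counts were tested with edgeR 4.0.16 in R 4.3.3 (filterByExpr, TMM factors, robust quasi-likelihood F test), with Benjamini-Hochberg adjustment over all genes tested and calls at an adjusted p under 0.05. Each line was fitted alone over its 9 libraries. Differences between lines came from 1 fit of 18. The script was tested on simulated counts. Alternatives were other scaling factors, other filters, DESeq2 1.42.0, a replicate block, other sets of libraries in the fit, a minimum log2 fold change of 0.5 and leaving out each library.

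The genes and lists were chosen with earlier results of these data known. Any of the 35 genes at a mean of 1 CPM or more in a line could be named. Values per library were given for at most 10 genes a line, those called for lean over obese or lean over control with an absolute log2 fold change of at least 0.5, ranked by lean over obese, and for at most 5 genes a line called for obese over control. Other genes of the pathway were named when called for lean over obese at 0.8 or more without overlap, at most 10 a line, and 1 such gene is not reported here. Genes described outside these rules were chosen after their values were seen.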

Additional observations from a re-analysis of the deposited data

Results flagged for a closer look

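The values here are differences between the lines, the log2 fold change in E0771 minus that in NMuMG, for which the difference itself was called in 1 fit of all 18 libraries (edgeR's quasi-likelihood test, Benjamini-Hochberg adjustment over 16529 genes, 3 libraries a group). The labels name insulin and added glucose for the medium of NMuMG alone, so line and medium cannot be told apart in any of them.

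For lean over obese secretome, 22 of the 34 genes tested had the lower value in E0771 and 4 the higher, against 15.5% and 18.8% of all genes. The most negative were Decr2 at -1.09, Acox3 at -0.82 and Acaa1a at -0.81, enzymes of peroxisomes. Of other genes of peroxisomes, Crot was at -0.66, Acot8 at -0.39 and Hsd17b4 at -0.34. Of the mitochondrial dehydrogenases, Acads was at -0.66, Acadvl at -0.26, Acadm at -0.23 and Acadl at -0.22. In the later steps of the mitochondrial cycle, Hadha was at -0.44, Hadh and Hadhb at -0.34, Acaa2 at -0.26 and Echs1 at -0.25. The enzymes for unsaturated chains Decr1 and Eci1 stood at -0.61 and -0.37. The electron carriers Etfb and Etfa stood at -0.67 and -0.23, and the carnitine enzymes Cpt1a, Cpt2 and Crat at -0.54, -0.33 and -0.25. The higher value was in E0771 for 4 genes, which were Slc25a20 at 0.39, Acsl1 at 0.67, Pex11a at 0.71 and Cpt1b at 1.01. Cpt1b rests on low counts (adjusted p = 0.0442), and its call was lost with the replicate block (adjusted p = 0.0592), with library totals alone (0.0511), without a filter on low counts (0.0701) and without any of 9 libraries in turn, falling to 0.66 (adjusted p = 0.194) without E0771 obese replicate 1. Without E0771 lean replicate 3, Acaa2 fell to -0.16 (adjusted p = 0.113), Echs1 to -0.16 (adjusted p = 0.0833) and Etfa to -0.14 (adjusted p = 0.0636), none of them called. Acaa2 was also lost without any of 3 other libraries in turn (adjusted p of 0.0527 to 0.110), and Etfa without NMuMG obese replicate 2 (adjusted p = 0.0532).

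For lean over control, the differences of at least 0.5 were those of Cpt1c at -1.26, Acaa1a at -0.82, Decr2 at -0.76, Acox3 at -0.75, Crot at -0.61, Acads at -0.56, Acsl1 at 0.91 and Slc25a20 at 1.02. Cpt1c was under 1 CPM in every E0771 library.

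For obese over control, all 8 values called, of 34 tested, were higher in E0771, against 1.06% of all genes higher and 0.623% lower. Slc25a20 stood at 0.63, Cpt1a at 0.58, Decr1 at 0.51, Etfb at 0.37, Acaa2 and Eci2 at 0.35, Acadl at 0.33 and Acadvl at 0.22. The genes called in this contrast fell to between 3 and 6 when 1 library was left out. The calls of Acadvl, Acaa2, Eci2, Decr1 and Etfb were each lost without at least 1 library, with an adjusted p of up to 0.210 for Etfb.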

How the results depend on the processing

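No gene of the 35 that was called changed its direction under any alternative run. In lean over obese, alternatives other than the fold minimum called 24 to 25 genes in E0771 (24 to 26 with 1 library left out) and 23 to 24 in NMuMG (22 to 25 with 1 left out). In lean over control they called 26 to 28 (24 to 27) and 18 to 20 (17 to 19). In obese over control, both lines in 1 fit gave 10 genes in E0771 in place of 5 and 0 in NMuMG in place of 1, and leaving out 1 library gave 2 to 7 in E0771. Without E0771 control replicate 1 the count was 2. The difference between the lines in obese over control had 8 genes, and 3 to 6 with 1 library left out. Requiring a log2 fold change of 0.5 left 8, 10 and 1 genes in E0771 for lean over obese, lean over control and obese over control, 4, 3 and 0 in NMuMG, and 11, 8 and 3 for the differences between lines. Over all genes it left 2267, 2715 and 51 in E0771, 1197, 1448 and 100 in NMuMG, and 2106, 2179 and 66 for the differences. The cause of these shifts was not tested, beyond what the fold minimum removes by construction.

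Among the contrasts of media within a line, the counts over all genes moved by the largest ratio in obese over control. They went from 360 to between 79 and 498 in E0771 with 1 library left out and to as many as 626 otherwise, and from 752 to between 384 and 893 in NMuMG. The share of higher calls in NMuMG fell from 46.8% to 35.8% when scaled by library totals alone.

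Replicate numbers were checked for pairing. Deviations of libraries with the same number correlated at -0.118 to 0.119 for E0771 and at -0.0287 to 0.0229 for NMuMG, and 3 of 9 and 0 of 9 libraries correlated best with their own number. With the replicate block, 24 genes were called for lean over obese in each line, and the difference between lines in obese over control fell from 8 genes to 5.

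Genes under 1 CPM, such as Cpt1b and Cpt1c in E0771, are limited by depth. Replicates within a group differed by more than counting noise, with a chi-square per degree of freedom of 2.27 to 8.37 in E0771 and 2.59 to 5.63 in NMuMG.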

Other observations

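Receptors and enzymes beside the pathway are given here, chosen after their values were seen from the lists of related genes. Ppard, a nuclear receptor for fatty acids, was at 73.5, 73.4 and 75.0 CPM in E0771 control medium, 132.9, 134.8 and 151.7 with the lean secretome and 93.3, 75.5 and 75.9 with the obese secretome. The lean libraries lay above all others, and lean over obese was 0.77 (SE 0.0729, adjusted p = 5.82e-07 by edgeR's quasi-likelihood test). In NMuMG it was at 0.22 for lean over obese (SE 0.0505, adjusted p = 0.000834), and the difference between the lines was 0.57 (adjusted p = 0.000200). Its relatives Ppara and Pparg had no count in any of the 9 E0771 libraries. In NMuMG Pparg was at 19.3 to 24.9 CPM and was not called in any contrast of media, and Ppara stayed under 1 CPM.

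Cat, the peroxisomal catalase that removes the hydrogen peroxide made by acyl-CoA oxidases, was at 79.7, 90.0 and 84.1 CPM in E0771 control medium, 229.7, 236.9 and 221.3 with the lean secretome and 190.9, 106.1 and 124.2 with the obese secretome. The obese libraries spread widely, with replicate 1 close to the lean ones, and lean over obese was 0.70 (SE 0.210, adjusted p = 0.0304). In NMuMG it was 0.64 (SE 0.0800, adjusted p = 0.000482).

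Carnitine uptake and synthesis had 3 genes tested in E0771, of which 2 were higher for lean over obese (66.7% called, against 52.7% of all genes). The remaining gene tested was not called, and Tmlhe, of the same list, was not matched to an ID. Slc22a4, a transporter of carnitine and ergothioneine, read 24.9, 23.6 and 25.9 CPM in control medium, 45.3, 46.5 and 54.6 with the lean secretome and 31.9, 28.9 and 29.2 with the obese secretome, without overlap between any of the media. Its lean over obese value was 0.70 (SE 0.0684, adjusted p = 7.87e-09). Aldh9a1, an aldehyde dehydrogenase of carnitine synthesis, was higher for lean over obese in both lines, by 0.42 in E0771 (adjusted p = 8.93e-08) and 0.38 in NMuMG (adjusted p = 6.92e-09).

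Of 18 peroxisome assembly genes, 4 were higher and 6 lower for lean over obese in E0771 (55.6% called, against 52.7% of all genes), and 3 were higher and 1 lower in NMuMG (22.2% against 35%). Pex7, the import receptor that brings thiolase into peroxisomes, had lean over obese at -0.78 in E0771 (SE 0.0864, adjusted p = 9.09e-08) and -0.03 in NMuMG, where it was not called. Pex13, a docking protein of the import pore, was at 0.67 in E0771 (adjusted p = 2.07e-09) and 0.19 in NMuMG (adjusted p = 0.00701).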
